A study of Homo sapiens with 18 samples.

Results

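The cell cycle genes described here are 57 genes that drive or accompany cell division, taken by symbol from a list that sets apart 16 regulators of G1, 14 genes of S phase and 27 genes of G2 and mitosis. The deposited tables list 63677 gene identifiers, of which 18650 reached the level needed for testing, and all 57 were among these. They were measured by RNA sequencing of bulk tumours that grew in mice from human neuroblastoma cell lines. Neuroblastoma is a childhood tumour of the sympathetic nervous system, and a xenograft holds host cells beside the human ones. The 6 groups of 3 libraries were SKNAS Hmx1, SKNAS control, LAN-1 Hmx1, LAN-1 control, KELLY Hmx1 and KELLY control. Hmx1 names a homeobox transcription factor, and the labels do not say whether it was raised or lowered, by what construct, or in how many clones. All libraries carry the treatment label "None". A MYCN-amp genotype is written on 2 of the 3 KELLY control libraries and on no other library. The age, strain and number of the mice are not in the labels, and p-values measure the spread between libraries, which may be technical.

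The cell cycle runs on cyclins, which come and go, and on the cyclin-dependent kinases (CDKs) that they switch on. In G1, D-type cyclins with CDK4 and CDK6, and then cyclin E with CDK2, phosphorylate RB1 and free the E2F factors, which turn on the genes for DNA replication, while inhibitors such as CDKN1B and CDKN2C hold the kinases back. In G2 and mitosis, CDK1 with A-type and B-type cyclins takes over, and genes of this phase are turned on through the MuvB complex with MYBL2 and FOXM1. MYCN-amplified neuroblastoma is known for fast division. In bulk tissue, fewer cells of a type and less RNA per cell cannot be told apart.

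The labels were checked first. HMX1 stood at 0.193 to 1.24 TPM in SKNAS Hmx1, and each SKNAS control library lists it at 0. TPM is a transcript level per length that sums to 1000000 in each library. It averaged 13.2 ± 2.89 TPM in LAN-1 Hmx1 against 11.6 ± 0.413 in LAN-1 control, and 5.50 ± 0.861 TPM in KELLY Hmx1 against 5.70 ± 1.91 in KELLY control (SD, n = 3 here and below), and in both these lines the libraries of the arms overlapped. The neuroblastoma marker HAND2 was present in every group, at group means of 245 to 356 TPM. It is 1 of 12 noradrenergic neuroblastoma markers, of which 11 averaged 1 TPM or more in SKNAS Hmx1 and 12 in each other group. The 12 summed to 2380 to 2789 TPM in SKNAS Hmx1 and 2133 to 2799 in SKNAS control. Higher sums stood in LAN-1 Hmx1 (4179 to 4391) and control (4876 to 5253), and in KELLY Hmx1 (6056 to 6915) and control (4373 to 7460). MYCN averaged 0.0502 and 0.0469 TPM in SKNAS Hmx1 and control, 787 and 867 TPM in LAN-1 Hmx1 and control, and 1472 and 1424 TPM in KELLY Hmx1 and control. Between 14420 and 16441 genes reached 1 TPM per library. TPM keeps no depth, so the depth is unknown. Mitochondrial transcripts took 4.47% to 33.8% of the TPM of a library. KELLY control replicates 1 and 3 had the highest shares, and in KELLY control replicate 1 the 57 genes summed to 2756 TPM, the lowest sum of all 18 libraries.

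The share of promoters with a match to short sequence elements differed between the phases. RefSeq promoters of GRCh38.p14 were matched for 45 of the 57 genes. Each ran from 250 bases before to 50 bases after the start listed first for the gene, and any other listed start was not searched. Those not matched were CCND1, CCND2, CDK2, CCNE2, MCM4, MCM5, FOXM1, AURKA, TPX2, BIRC5, TTK and UBE2C. Short elements were searched on both strands. The E2F-type element was TTTCCCGC, TTTGGCGC, TTTCGCGC or TTTGCCGC, the CHR (cell cycle genes homology region, bound by MuvB) was TTTGAA, and the CCAAT box (bound by NF-Y) was CCAAT. An E2F-type match lay in 8 of 12 S phase promoters (66.7%), in 5 of 12 promoters of G1 regulators (41.7%) and in 1 of 21 promoters of G2 and mitosis (4.76%), against 908 of all 27305 promoters (3.33%). The 8 S phase promoters were those of MCM2, MCM3, MCM6, MCM7, CDC6, CDT1, PCNA and TYMS, and the single one of G2 and mitosis was that of CDK1. A CHR match lay in 12 of 21 promoters of G2 and mitosis (57.1%), in 1 of 12 of S phase and in 1 of 12 of G1, against 15.4% of all promoters. A CCAAT box lay in 17 of 21 (81.0%), 7 of 12 (58.3%) and 4 of 12 (33.3%) in the order mitosis, S phase and G1, against 35.7% of all. CHR and CCAAT stood together in 11 of the 21 promoters of G2 and mitosis (52.4%), against 6.08% of all. A match is a run of letters and was not tested for binding. Whether the listed start is the one used in these tumours was not tested either.

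**Figure D1:**
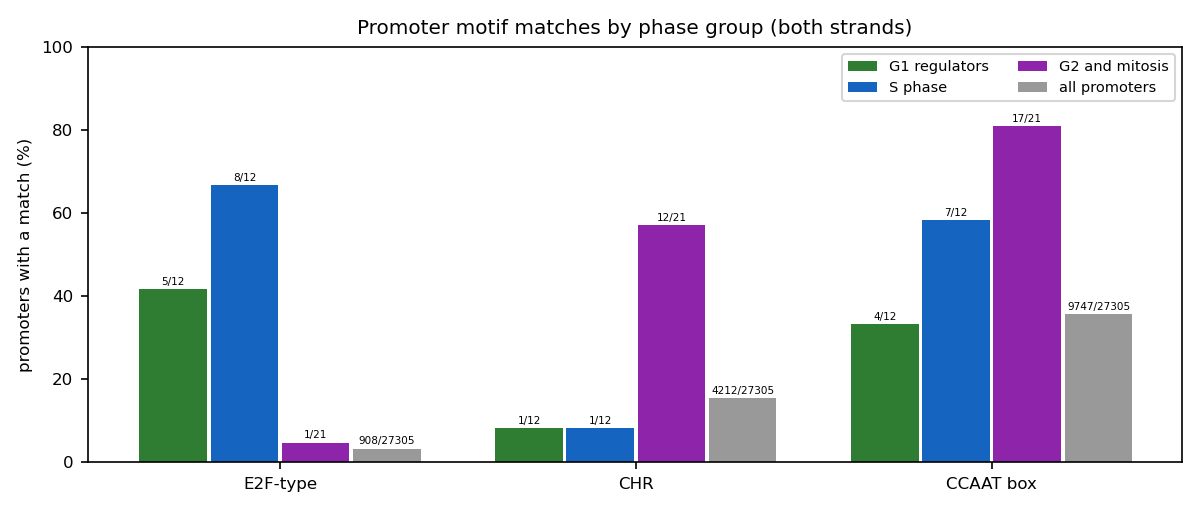
Share of promoters (%) with at least 1 match on either strand to the E2F-type element, the CHR or the CCAAT box, for the 3 phase groups and for all 27305 RefSeq promoters, with the counts above the bars. The E2F-type bar is highest for S phase (8 of 12), and the CHR bar is highest for G2 and mitosis (12 of 21).

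The promoters printed here are those of the 4 genes that were lower in SKNAS Hmx1 and that of MCM6, which held the most E2F-type matches of the 45. They run from 5′ to 3′ on the strand of the gene, with matches in capitals. CDK1 (chr10:60778081-60778380, plus strand) has a CHR and a CCAAT box close together and an E2F-type match (TTTCGCGC) behind its start. RRM2 (chr2:10122489-10122788, plus strand) has 3 CCAAT boxes in near repeats. AURKB (chr17:8210176-8210475, minus strand) has 1 CCAAT box, read as ATTGG on the printed strand. At its listed start lies an ATG that appears to open the coding sequence, so this window may begin inside the gene. CDC20 (chr1:43358731-43359030, plus strand) has 2 CHR matches, of which the first is read as TTCAAA, and 2 CCAAT boxes. MCM6 (chr2:135876394-135876693, minus strand) has 4 E2F-type matches that overlap in 2 pairs, each printed as TTTGGCGCGAAA, and 2 CCAAT boxes read as ATTGG.
CDK1: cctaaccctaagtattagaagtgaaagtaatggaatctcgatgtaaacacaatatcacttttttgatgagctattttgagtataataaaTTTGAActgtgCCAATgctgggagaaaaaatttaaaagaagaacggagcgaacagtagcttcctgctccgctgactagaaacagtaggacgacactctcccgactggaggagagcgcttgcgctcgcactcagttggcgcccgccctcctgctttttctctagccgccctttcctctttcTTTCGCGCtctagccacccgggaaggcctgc
RRM2: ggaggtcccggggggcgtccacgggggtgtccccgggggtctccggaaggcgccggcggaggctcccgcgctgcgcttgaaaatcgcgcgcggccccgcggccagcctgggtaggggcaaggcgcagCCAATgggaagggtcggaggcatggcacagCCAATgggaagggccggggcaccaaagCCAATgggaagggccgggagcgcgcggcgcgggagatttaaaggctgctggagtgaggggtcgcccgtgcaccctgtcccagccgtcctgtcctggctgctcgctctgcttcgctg
AURKB: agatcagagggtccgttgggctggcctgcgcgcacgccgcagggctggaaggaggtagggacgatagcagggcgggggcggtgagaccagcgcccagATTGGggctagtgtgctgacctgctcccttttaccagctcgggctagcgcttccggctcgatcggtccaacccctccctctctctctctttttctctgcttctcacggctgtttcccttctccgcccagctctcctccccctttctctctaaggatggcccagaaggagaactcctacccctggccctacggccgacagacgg
CDC20: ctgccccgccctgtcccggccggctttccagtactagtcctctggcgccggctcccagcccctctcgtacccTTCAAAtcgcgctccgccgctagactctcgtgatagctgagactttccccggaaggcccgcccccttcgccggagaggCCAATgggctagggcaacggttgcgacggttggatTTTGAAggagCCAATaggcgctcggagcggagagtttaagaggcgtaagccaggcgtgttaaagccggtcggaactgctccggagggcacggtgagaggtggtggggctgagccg
MCM6: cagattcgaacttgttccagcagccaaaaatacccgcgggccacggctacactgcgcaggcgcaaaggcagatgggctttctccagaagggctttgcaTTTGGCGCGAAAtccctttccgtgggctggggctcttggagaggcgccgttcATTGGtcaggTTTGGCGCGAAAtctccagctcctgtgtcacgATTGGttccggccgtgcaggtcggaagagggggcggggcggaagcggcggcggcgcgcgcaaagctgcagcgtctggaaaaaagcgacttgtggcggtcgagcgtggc
In these windows, the 4 genes that were lower in SKNAS Hmx1 thus share a CCAAT box, which 62.2% of the 45 promoters held. Of the 4, 2 hold a CHR and 1 holds an E2F-type match.

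Across all 18 libraries, the highest G1 regulator was CDK4 at a mean of 374 TPM and the lowest was CCND2 at 0.405 TPM, the only gene of the 57 with a mean under 1 TPM. In S phase the levels ran from CDT1, the licensing factor that loads the MCM helicase, at 22.5 TPM to PCNA, the sliding clamp of the replication fork, at 442 TPM. In G2 and mitosis they ran from CENPE, a kinetochore motor, at 21.2 TPM to CKS1B, a small CDK subunit, at 353 TPM. The spread among the 3 libraries of a group, as a coefficient of variation, had a median over genes of 9.64% in SKNAS Hmx1 and 11.3% in SKNAS control. It was 18.5% and 9.22% in LAN-1 Hmx1 and control, and 14.1% and 35.7% in KELLY Hmx1 and control. KELLY control libraries thus varied most in the deposited TPM, where the 57 genes summed to 4024 ± 1170 TPM. With median-ratio scaling of the libraries that sum was 4933 ± 309, a smaller spread than in SKNAS control (5759 ± 667) and LAN-1 Hmx1 (6631 ± 526).

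In SKNAS, the clearest change was among the D-type cyclins, the G1 cyclins that link growth signals to the cycle. CCND1 (ENSG00000110092, chromosome 11, 69455855 to 69469242, GRCh37 coordinates of the files) had 28.8, 29.4 and 27.5 TPM in SKNAS Hmx1, against 3.86, 3.73 and 3.89 TPM in SKNAS control. All 3 Hmx1 libraries lay far above the controls, and CCND1 rose by 2.61 on the log2(TPM + 1) scale (SE 0.23, limma adjusted p = 3.53e-07). CCND1 overlaps LTO1 on the other strand by 1399 bases, and the sources used here do not say whether strand was used. LTO1 averaged 22.7 ± 2.86 TPM in SKNAS Hmx1 and 22.3 ± 3.34 in SKNAS control. CCND2 (ENSG00000118971, chromosome 12, 4382938 to 4414516) had 3.09, 1.49 and 2.54 TPM in SKNAS Hmx1, against 0, 0.0629 and 0.0415 TPM in SKNAS control. CCND2 was higher by 1.67 (SE 0.14, adjusted p = 2.81e-07), yet it met the level for testing only through the SKNAS Hmx1 libraries and so had to differ. CCND3 had 29.4, 12.5 and 12.4 TPM in SKNAS Hmx1, against 30.7, 25.8 and 18.8 TPM in SKNAS control, groups that overlapped (log2 difference -0.54, adjusted p = 0.38).

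The make-up of the D-type cyclins differed with it. CCND1 made up 59.9% ± 11.3 of their summed TPM in SKNAS Hmx1 and 13.6% ± 3.08 in SKNAS control, and CCND3 made up 35.3% ± 10.98 in SKNAS Hmx1 and 86.2% ± 3.15 in SKNAS control. The sum itself was 49.0 ± 10.7 TPM in SKNAS Hmx1 and 29.0 ± 5.90 TPM in SKNAS control. CCNE1 and CCNE2, the E-type cyclins that act after them, stood at 1.96 ± 0.313 TPM per TPM of D-type cyclin in SKNAS Hmx1, against 4.28 ± 0.570 in SKNAS control. None of these values overlapped between the SKNAS arms. Each had p = 0.1 in a two-sided exact permutation test, the smallest that 3 libraries against 3 allow, and of the 84 comparisons of ratios and sums made here none passed (smallest adjusted p = 0.227). The D-type cyclins of SKNAS control were thus mostly CCND3. CCND1 held 87.6% ± 2.36 in LAN-1 Hmx1 and 82.5% ± 1.16 in LAN-1 control, and 83.4% ± 4.29 in KELLY Hmx1 and 85.2% ± 5.27 in KELLY control. The CCND1 share did not overlap between the LAN-1 arms either (84.8% to 89.0% against 81.5% to 83.8%, p = 0.1 in the same permutation test), and it overlapped between the KELLY arms.

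**Figure D2:**
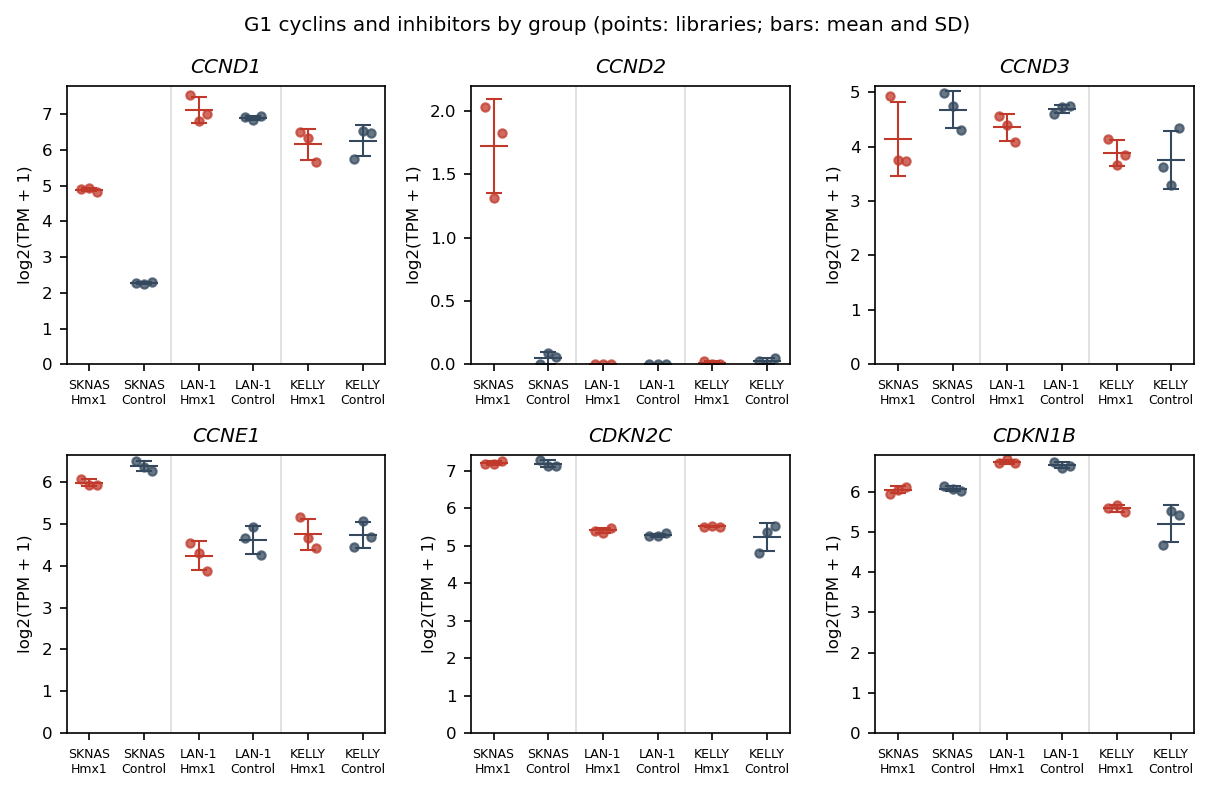
Levels of 6 G1 regulators, log2(TPM + 1), in the 6 groups, with points for the 3 libraries and bars for the mean and SD. CCND1 lies higher in SKNAS Hmx1 (28.6 TPM) than in SKNAS control (3.83 TPM) and below both other lines, and CCND2 exceeds 1 TPM in SKNAS Hmx1 alone.

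The other G1 regulators did not pass in SKNAS. CDK4 averaged 502 ± 59.0 TPM in SKNAS Hmx1 and 543 ± 216 in SKNAS control (log2 difference -0.03, 95% interval -0.64 to 0.58, adjusted p = 0.996), and CDK6 157.6 ± 15.5 and 154.8 ± 14.9 TPM (0.03, adjusted p = 0.995). The inhibitors CDKN1B (64.9 ± 3.95 against 66.2 ± 2.97 TPM) and CDKN2C (146 ± 4.56 against 145 ± 9.46 TPM) stood at log2 differences of -0.03 (-0.39 to 0.34) and 0.01 (-0.30 to 0.33). RB1, the brake that CDK4 and CDK6 release, had a difference of 0.07 (-0.50 to 0.64), and E2F1 -0.20 (-0.56 to 0.15). Of 16 G1 regulators, 2 were higher (CCND1 and CCND2), 0 lower and 14 did not pass, with a median log2 difference of -0.03.

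In SKNAS Hmx1, 4 genes of S phase and mitosis were lower. CDK1 (ENSG00000170312, chromosome 10, 62538089 to 62554610), the kinase of mitotic entry, had 114.4, 111.8 and 106.9 TPM in SKNAS Hmx1, against 236, 196 and 201 TPM in SKNAS control. It fell by 0.92 (SE 0.23, adjusted p = 0.0142) with no overlap between the arms. RRM2 (ENSG00000171848, chromosome 2, 10262455 to 10271545), the S phase subunit of ribonucleotide reductase, had 62.0, 63.1 and 62.0 TPM in SKNAS Hmx1, against 119.05, 132 and 95.8 TPM in SKNAS control. RRM2 fell by 0.87 (SE 0.26, adjusted p = 0.0443). Its partner RRM1, the subunit made through the whole cycle, had 131, 135 and 147 TPM in SKNAS Hmx1, against 167, 151 and 154 TPM in SKNAS control (log2 difference -0.20, adjusted p = 0.75). The 3 libraries of each arm did not overlap for RRM1 either, but the difference was small and did not pass.

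AURKB (ENSG00000178999, chromosome 17, 8108056 to 8113918), the kinase of the chromosomal passenger complex, had 24.0, 34.6 and 29.2 TPM in SKNAS Hmx1, against 50.6, 46.3 and 42.2 TPM in SKNAS control. It fell by 0.66 (SE 0.18, adjusted p = 0.0292). CDC20 (ENSG00000117399, chromosome 1, 43824626 to 43828874), the activator of the anaphase-promoting complex, had 73.9, 78.2 and 89.4 TPM in SKNAS Hmx1, against 142, 102 and 115.3 TPM in SKNAS control. It fell by 0.56 (SE 0.17, adjusted p = 0.0438). For both genes every Hmx1 library lay below every control library. The calls of RRM2 and CDC20 were each kept in 13 of 27 alternative settings, that of AURKB in 22 and that of CDK1 in 25, with the same sign in all of them. AURKA, the spindle pole kinase related to AURKB, averaged 56.4 ± 4.18 TPM in SKNAS Hmx1 and 66.6 ± 6.92 in SKNAS control (log2 difference -0.23, adjusted p = 0.695).

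**Figure D3:**
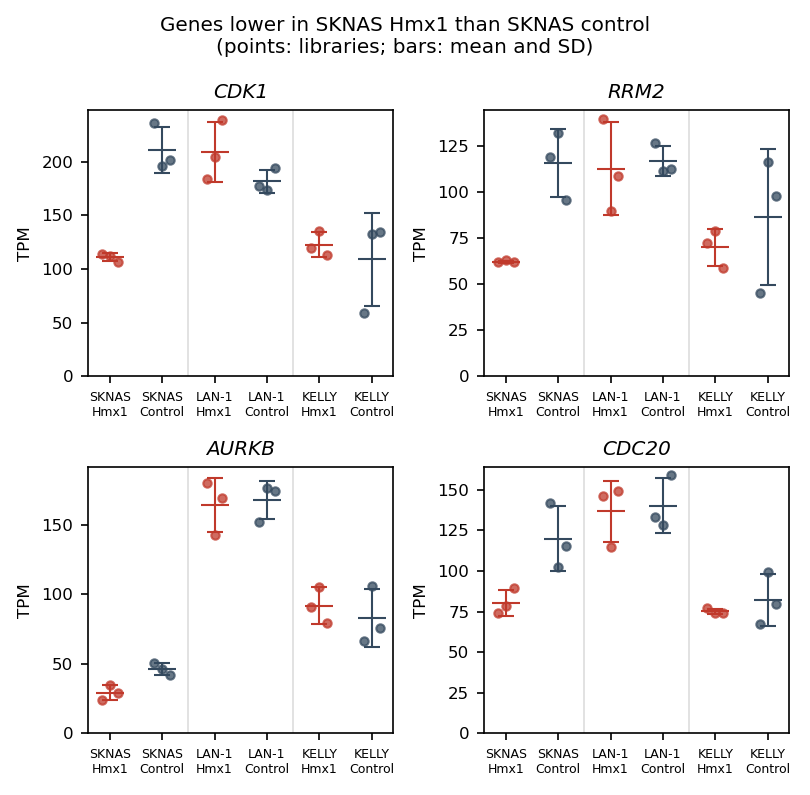
TPM of CDK1, RRM2, AURKB and CDC20 in the 6 groups, with points for the libraries and bars for the mean and SD. In each panel the 3 SKNAS Hmx1 points lie below the 3 SKNAS control points, while the arms of LAN-1 and of KELLY overlap.

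Most of the other genes of these phases had a negative difference that did not pass. In SKNAS, the log2 difference was negative for 11 of the 13 S phase genes and 22 of the 24 genes of G2 and mitosis that did not pass. The medians over all 14 and all 27 genes were -0.16 and -0.25, where the median over all genes tested was 0. Of the 14 S phase genes 0 were higher, 1 was lower and 13 did not pass, and of the 27 genes of G2 and mitosis 0 were higher, 3 were lower and 24 did not pass. Over all 57 genes, 2 were higher and 4 were lower, 6 in all with CCND2, which had to differ, where 4.96% of all genes tested were higher and 3.80% lower (8.76% either way). Median-ratio scaling of the libraries called the same 6 genes, where 10.7% of all genes were called. The arms did not overlap for 3 genes that were higher and 22 that were lower, against a background of 14.8% and 16.0% of all genes. The 22 included MCM2, MCM4, MCM6, CDC6, PCNA, CCNE1, CCNE2, CCNA2, CCNB1, CKS2, TPX2, MAD2L1 and PTTG1. FOXM1, the activator of G2 genes, had a log2 difference of -0.71 (-1.42 to 0.01, adjusted p = 0.278), MYBL2 -0.22 (adjusted p = 0.518) and CCNB1, cyclin B1, -0.40 (adjusted p = 0.424). PCNA had 388, 388 and 404 TPM in SKNAS Hmx1, against 609, 464 and 483 TPM in SKNAS control (-0.39, adjusted p = 0.335).

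The proliferation marker MKI67 had a difference close to 0. It had 38.0, 48.9 and 33.4 TPM in SKNAS Hmx1, against 30.2, 41.6 and 42.6 TPM in SKNAS control, and its difference of 0.07 had a wide interval (-1.18 to 1.32). TOP2A, the topoisomerase of chromosome condensation, averaged 199.5 ± 19.9 TPM in SKNAS Hmx1 and 231 ± 49.4 in SKNAS control (-0.19, adjusted p = 0.826). MCM2, a helicase subunit, stood at -0.46 (adjusted p = 0.581) and TYMS, thymidylate synthase, at -0.08 (adjusted p = 0.951). Summed per library, the S phase genes held 1786 ± 28.5 TPM in SKNAS Hmx1 and 2130 ± 180 in SKNAS control, and the genes of G2 and mitosis 2787 ± 173 and 3508 ± 364 TPM. The ratio of the first sum to the second was 0.642 ± 0.0350 in SKNAS Hmx1 and 0.608 ± 0.0313 in SKNAS control, ranges that overlapped.

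Some marker sums of other cell types differed between the same arms, while those of endothelium overlapped. PTPRC, the common leukocyte antigen, had 187 to 285 TPM in SKNAS Hmx1, against 75.7 to 102 TPM in SKNAS control, and it was listed at 0 in every LAN-1 and KELLY library. The 8 leukocyte markers summed to 190 to 287 TPM in SKNAS Hmx1, with 1 of 8 at a mean of 1 TPM or more and LYZ at 0. They summed to 77.9 to 105 TPM in SKNAS control, with 2 of 8 at that level and ITGAM and AIF1 at 0. In both arms PTPRC made up nearly all of the leukocyte sum, so the difference in the sum was that of PTPRC. The 8 fibroblast markers summed to 802 to 896 TPM in SKNAS Hmx1 (7 of 8 at 1 TPM or more) and 1135 to 1336 TPM in SKNAS control (8 of 8). The 12 mesenchymal neuroblastoma markers summed to 506 to 556 TPM (11 of 12) and 750 to 813 TPM (10 of 12). The 8 endothelial markers summed to 7.39 to 10.6 TPM and 7.29 to 10.3 TPM, with PECAM1 at 0 in every library of both arms. Skeletal muscle markers summed to 4.94 to 8.06 TPM and 8.42 to 13.5 TPM (2 of 7 with a row at 1 TPM or more in each arm, MYH1 and MYH2 at 0 in control). Their part in the results was not tested.

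In LAN-1 and KELLY, limma called 0 of the 57 genes, where 0.450% and 0.0912% of all genes were called. At an unadjusted p under 0.05 there were 0 genes in LAN-1 and 2 in KELLY, against 1341 and 1277 of all 18650 genes. After median-ratio scaling there were 4 and 1, and the number of all genes at that p is not given. In both lines 0 were called after scaling, where 0.909% and 0.173% of all genes were called. The LAN-1 arms did not overlap for 5 genes that were higher (CDKN2C, RB1, PCNA, TYMS and CKS2) and 3 that were lower (CCND3, GMNN and AURKA), against 6.34% and 9.47% of all genes. TYMS had 208, 182 and 192 TPM in LAN-1 Hmx1, against 121.4, 122.7 and 167 TPM in LAN-1 control (log2 difference 0.51, adjusted p = 0.722). PCNA averaged 616 ± 30.8 TPM in LAN-1 Hmx1 and 474 ± 33.3 in LAN-1 control (0.38, -0.05 to 0.81). The KELLY arms did not overlap for TK1 and UBE2C, both higher, against 4.46% of all genes, and for 0 genes that were lower, against 2.21%. UBE2C, the ubiquitin-conjugating enzyme of the anaphase-promoting complex, had 198, 191 and 186 TPM in KELLY Hmx1, against 114.9, 164 and 177 TPM in KELLY control (0.35, adjusted p = 0.686). The lowest control value there came from KELLY control replicate 1.

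In level, the genes that differed in SKNAS were flat or uneven in the other lines. CCND1 had 183, 111.8 and 128 TPM in LAN-1 Hmx1, against 119.9, 112.1 and 121.1 TPM in LAN-1 control (0.23, -0.25 to 0.71). It had 88.9, 78.7 and 49.5 TPM in KELLY Hmx1, against 53.0, 91.9 and 87.0 TPM in KELLY control (-0.09, -0.58 to 0.39). CCND2 was at 0 in every LAN-1 library and at most 0.0188 TPM in KELLY Hmx1 and 0.0359 TPM in KELLY control. CDK1 stood at 0.19 in LAN-1 (-0.29 to 0.67) and 0.26 in KELLY (-0.22 to 0.74), RRM2 at -0.07 and -0.20, AURKB at -0.03 and 0.17, and CDC20 at -0.04 and -0.11. The medians over the 27 genes of G2 and mitosis were 0.05 in LAN-1 and 0.01 in KELLY, and over the 14 S phase genes 0.01 and 0.12.

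**Figure D4:**
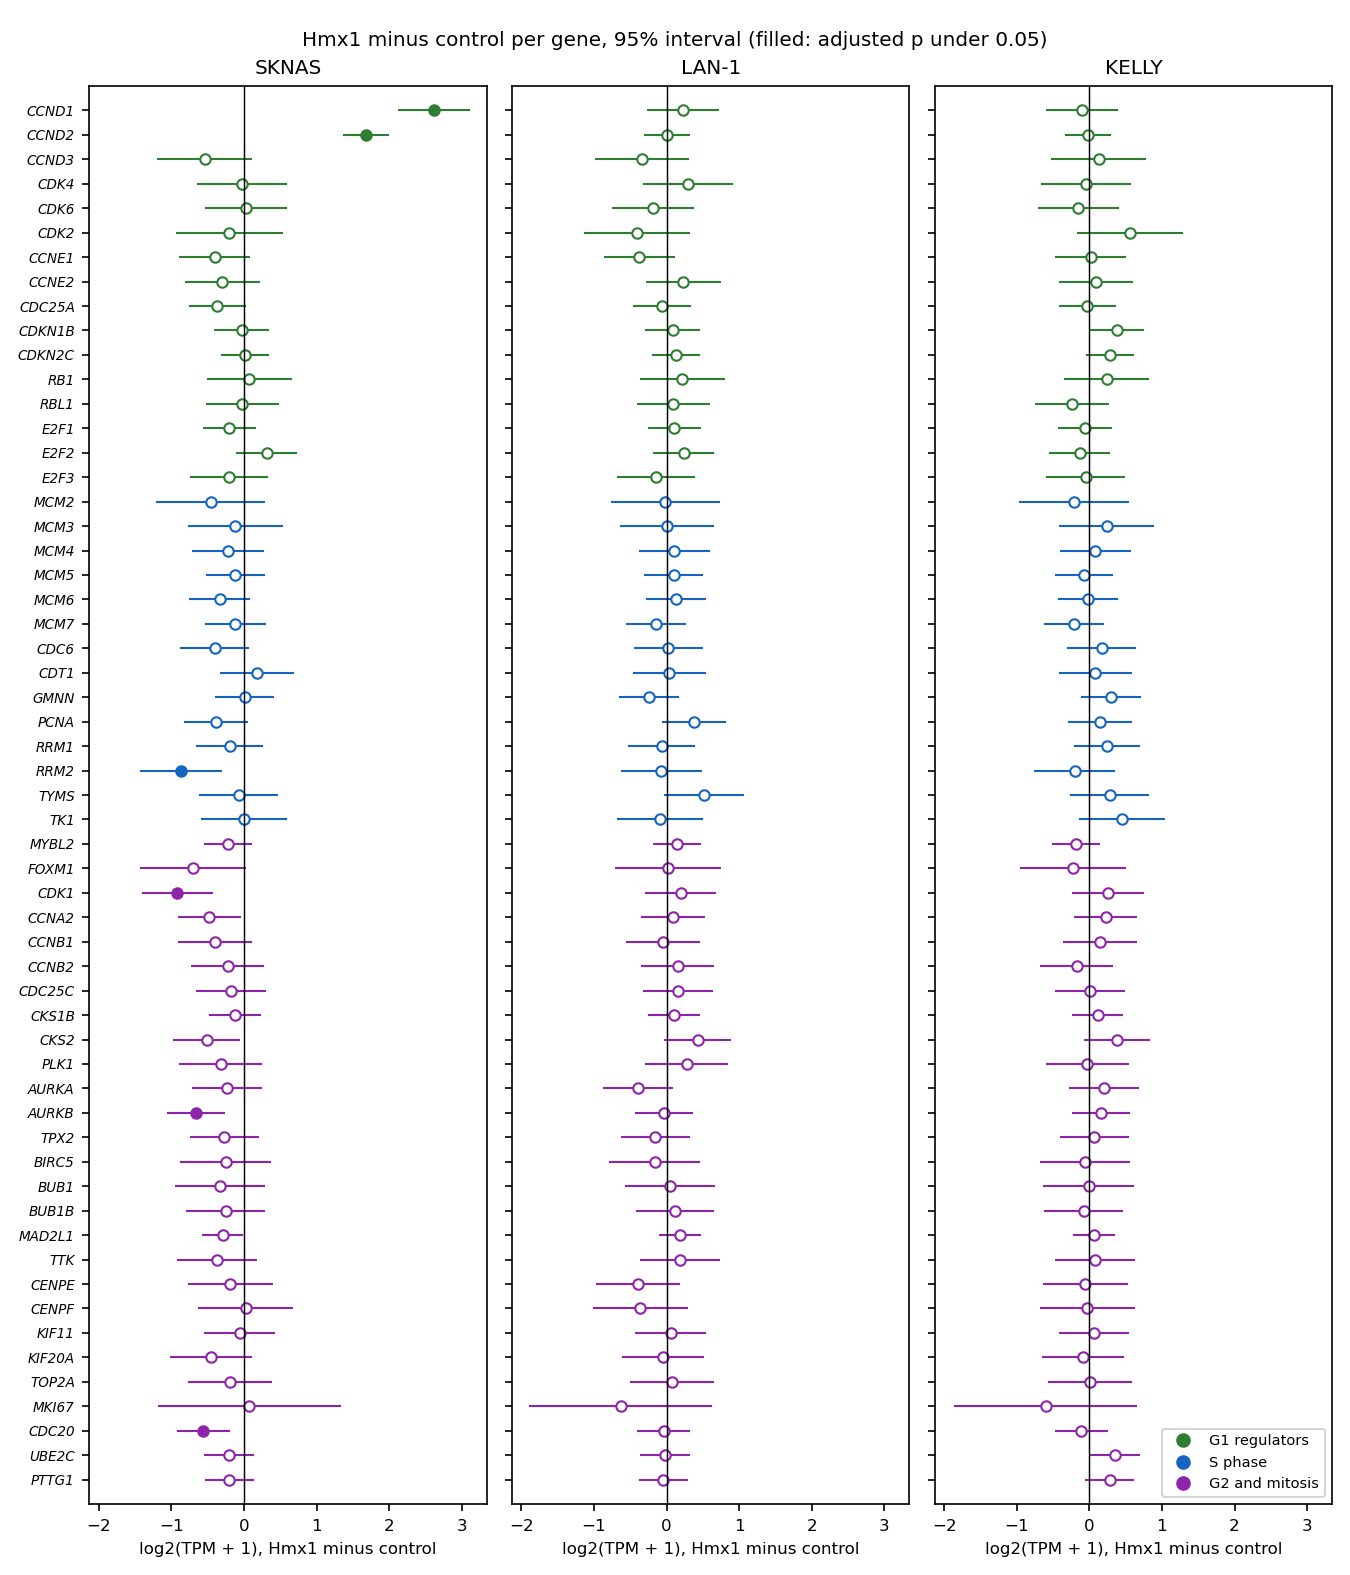
Log2(TPM + 1) difference, Hmx1 minus control, of the 57 genes in each line, with 95% intervals of the limma fit, colours for the 3 phase groups and filled points for an adjusted p under 0.05. In SKNAS, CCND1 and CCND2 lie far to the right and 25 of 27 genes of G2 and mitosis lie left of 0, and in LAN-1 and KELLY no point is filled.

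The differences between these effects were tested directly. The CCND1 effect in SKNAS exceeded that in LAN-1 by 2.38 (SE 0.32, adjusted p = 1.33e-04) and that in KELLY by 2.71 (SE 0.32, adjusted p = 3.38e-05). The CCND2 effect stood above them by 1.67 and 1.69, a difference that the filter fixed, since the gene was tested only through SKNAS Hmx1. The CDK1 effect was lower in SKNAS than in KELLY by -1.18 (SE 0.32, adjusted p = 0.0419), and the difference from LAN-1 did not pass (-1.11, adjusted p = 0.057). With CCND2 counted, 2 of 57 genes passed between SKNAS and LAN-1, where 4.99% of all genes did, and 3 passed between SKNAS and KELLY (4.85%). That CDK1 call was kept in 9 of 27 alternative settings. With median-ratio scaling, CDK1, PCNA, RRM2 and AURKB also passed against LAN-1 (6.74% of all genes called), and AURKB besides CDK1 against KELLY (7.22%). Between LAN-1 and KELLY 0 passed (0.209% of all genes), also with that scaling (0.357%). At an unadjusted p under 0.05 there were 0 genes as deposited, against 1282 of all 18650 genes. After scaling there were 3, and the number of all genes at that p is not given. Averaged over the lines, CCND1 was higher in Hmx1 by 0.92 (SE 0.13, adjusted p = 3.82e-04), although it did not pass in LAN-1 or in KELLY. It was 1 of 2 genes of the 57 that passed, where 3.54% of all did, and the other was CCND2, whose mean of 0.55 came from SKNAS and was likewise fixed by the filter.

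The 85 further cell cycle genes, of which 84 were tested, added no call in the deposited TPM. In SKNAS 0 of 84 passed, where 8.76% of all genes did, with a median log2 difference of -0.16 and 64 of 84 negative. An unadjusted p under 0.05 was reached by 10 of the 84, against 3470 of all 18650 genes. After median-ratio scaling 1 was higher and 3 were lower, where 10.7% of all genes were called. In LAN-1 and KELLY 0 of 84 passed under either scaling. Of all genes 0.450% and 0.0912% were called as deposited, and 0.909% and 0.173% after scaling. At an unadjusted p under 0.05 there was 1 gene each as deposited, against 1341 and 1277 of all 18650 genes. The cyclin-dependent kinase inhibitor CDKN1A averaged 1.95 ± 0.0839 TPM in SKNAS Hmx1 and 2.06 ± 0.882 in SKNAS control. It was named after its values were seen.

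The 3 lines differed from each other more than their arms did. In the deposited TPM the median over all genes was itself shifted, by 0.18 for SKNAS minus LAN-1, 0.54 for SKNAS minus KELLY and 0.34 for LAN-1 minus KELLY, and median-ratio scaling reduced these shifts to 0.04, 0.01 and -0.01. Between the control arms of SKNAS and LAN-1, 12 of 57 genes were higher in SKNAS and 9 lower (31.5% and 20.5% of all genes), and 12 and 13 after that scaling (28.9% and 26.3%). Between SKNAS and KELLY, 41 were higher in SKNAS and 4 lower (49.5% and 16.1% of all), and 22 and 8 after scaling (31.2% and 30.7%). Between LAN-1 and KELLY, 35 were higher in LAN-1 and 2 lower (38.2% and 13.6% of all), and 16 and 6 after scaling (24.8% and 25.3%). The control libraries did not overlap for 19 higher and 13 lower genes between SKNAS and LAN-1, for 37 and 4 between SKNAS and KELLY, and for 36 and 3 between LAN-1 and KELLY, where the shares of all genes were 40.3% and 26.2%, 47.7% and 15.9%, and 40.6% and 15.2%. The genes described next passed in the same direction under both scalings, unless stated.

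Of the 16 G1 regulators, 5 were higher and 3 lower in SKNAS than in LAN-1, about the shares of all genes given above, and the same numbers passed after scaling. Between SKNAS and KELLY 13 were higher and 2 lower, and 10 and 2 after scaling. CCND1, CDKN2C, CCNE1, E2F3 and CDC25A separated SKNAS from both other lines. CCND1 had 3.83 ± 0.0843 TPM in SKNAS control, against 117.7 ± 4.90 in LAN-1 control and 77.3 ± 21.2 in KELLY control, with log2 differences of -4.62 for SKNAS minus LAN-1 (SE 0.23, adjusted p = 1.39e-11) and -3.98 for SKNAS minus KELLY (adjusted p = 1.08e-10). Even in SKNAS Hmx1, at 28.6 ± 0.950 TPM, it lay under LAN-1 Hmx1 (141 ± 37.0) and KELLY Hmx1 (72.4 ± 20.4). CDKN2C, the inhibitor of CDK4 and CDK6, had 156, 140 and 140 TPM in SKNAS control, against 37.0, 37.5 and 39.2 TPM in LAN-1 control and 27.2, 40.1 and 44.8 TPM in KELLY control. Its difference was 1.91 against LAN-1 (SE 0.15, adjusted p = 8.22e-09) and 1.96 against KELLY (adjusted p = 5.72e-09). CCNE1, cyclin E1, averaged 82.2 ± 7.28 TPM in SKNAS control, against 24.0 ± 5.71 in LAN-1 control and 25.8 ± 5.92 in KELLY control, with differences of 1.76 and 1.65. Cyclin E per D-type cyclin was 4.28 ± 0.570 in SKNAS control, 0.309 ± 0.0663 in LAN-1 control and 0.404 ± 0.0555 in KELLY control. E2F3, an activating E2F factor, had 74.3 ± 1.64 TPM in SKNAS control, against 32.9 ± 2.57 and 24.4 ± 9.64 in LAN-1 and KELLY control. CDC25A, the phosphatase that activates CDK2, was lower in SKNAS, with 25.0 ± 2.60 TPM in SKNAS control, 49.2 ± 5.97 in LAN-1 control and 41.6 ± 7.26 in KELLY control (differences -0.95 and -0.70). All of these except the E-to-D ratio, which was not fitted, passed also between the Hmx1 arms under both scalings.

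The brakes RB1 and its relative RBL1 were higher in SKNAS and LAN-1 than in KELLY. RB1 had 35.5 ± 3.44 TPM in SKNAS control and 40.2 ± 1.34 in LAN-1 control, against 4.85, 15.5 and 13.3 TPM in KELLY control. The difference was 1.71 for SKNAS minus KELLY (adjusted p = 3.4e-05) and 1.89 for LAN-1 minus KELLY (adjusted p = 2.02e-05), and 1.11 and 1.45 with median-ratio scaling. CDK6 followed the order SKNAS, LAN-1, KELLY, at 154.8 ± 14.9, 93.7 ± 4.73 and 45.2 ± 19.5 TPM in the control arms, and each step passed (0.71, adjusted p = 0.029 between SKNAS and LAN-1, and 1.13, adjusted p = 0.00155 between LAN-1 and KELLY). CDK4 averaged 543 ± 216 TPM in SKNAS control, 372 ± 64.3 in LAN-1 control and 189.5 ± 72.9 in KELLY control, and passed under both scalings between SKNAS and KELLY only (1.49, adjusted p = 2.42e-04). CDKN1B was highest in LAN-1, at 99.8 ± 5.12 TPM in LAN-1 control, against 66.2 ± 2.97 in SKNAS control and 37.1 ± 11.03 in KELLY control. E2F1 passed between SKNAS and KELLY only under both scalings (1.08 and 0.45), and CCND3 under both in no pair.

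Among the S phase genes, the licensing factors CDT1 and CDC6 differed between lines, and so did helicase subunits and RRM1. CDT1 had 8.71, 6.92 and 11.3 TPM in SKNAS control, against 22.8, 21.9 and 21.4 TPM in LAN-1 control and 33.4, 43.6 and 26.6 TPM in KELLY control. It was lower in SKNAS than in LAN-1 (-1.23, SE 0.23, adjusted p = 2.61e-04) and KELLY (-1.83, adjusted p = 2.84e-06), and lower in LAN-1 than in KELLY (-0.60, adjusted p = 0.0396). Its inhibitor GMNN, geminin, averaged 64.1 ± 5.18 TPM in SKNAS control, 78.0 ± 2.32 in LAN-1 control and 72.3 ± 24.7 in KELLY control, so that CDT1 per GMNN was 0.139 ± 0.0248, 0.282 ± 0.00308 and 0.489 ± 0.0762. CDC6, which loads the helicase with CDT1, had 62.6 ± 3.28 TPM in SKNAS control, 23.3 ± 3.79 in LAN-1 control and 43.4 ± 13.1 in KELLY control. It was higher in SKNAS than in LAN-1 (1.40, adjusted p = 3.7e-05) and lower in LAN-1 than in KELLY (-0.84, adjusted p = 0.00407). The helicase subunits were not uniform within KELLY. MCM6 averaged 102 ± 11.2 TPM in SKNAS control and ran from 101.6 to 124.5 TPM in LAN-1 control, against 37.4 ± 11.9 TPM in KELLY control (differences from KELLY 1.47 and 1.62). MCM4 and MCM7 were also higher in SKNAS and LAN-1 than in KELLY. MCM5 averaged 65.2 ± 14.4 TPM in SKNAS control and 64.8 ± 5.05 in LAN-1 control, against 85.2 ± 13.6 in KELLY control (-0.39 and -0.38, adjusted p = 0.0684 and 0.0923), and after median-ratio scaling both differences passed (-1.03 and -0.85). RRM1 averaged 157 ± 8.27 TPM in SKNAS control and 149 ± 10.2 in LAN-1 control, against 51.2 ± 18.7 in KELLY control (1.67 and 1.59), and RRM2 did not pass in any pair. RRM2 per RRM1 was 0.455 ± 0.0280 in SKNAS Hmx1, 0.785 ± 0.0700 in LAN-1 Hmx1 and 1.21 ± 0.104 in KELLY Hmx1. It was 0.737 ± 0.130 in SKNAS control, 0.787 ± 0.00256 in LAN-1 control and 1.65 ± 0.167 in KELLY control. In KELLY as in SKNAS this ratio was lower in Hmx1 with no overlap between the arms (p = 0.1 each in the exact permutation test). The LAN-1 arms overlapped.

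In mitosis, AURKB and BUB1 separated the lines. AURKB was lower in SKNAS control, at 46.4 ± 4.21 TPM, than in LAN-1 control (168 ± 13.7, difference -1.83, SE 0.18, adjusted p = 1.66e-07) and in KELLY control (82.8 ± 20.9, -0.80, adjusted p = 0.00103), and it was higher in LAN-1 than in KELLY (1.03, adjusted p = 1.55e-04). AURKA stood at 66.6 ± 6.92, 78.5 ± 9.45 and 55.3 ± 18.9 TPM in the same order, and passed under both scalings in no pair. AURKB per AURKA was therefore 0.697 ± 0.0130 in SKNAS control, 2.16 ± 0.307 in LAN-1 control and 1.58 ± 0.435 in KELLY control. BUB1, a kinase of the spindle checkpoint, had 88.9, 59.4 and 80.7 TPM in SKNAS control and 48.4, 46.2 and 60.1 TPM in LAN-1 control, against 5.58, 16.5 and 14.4 TPM in KELLY control. The difference was 2.65 for SKNAS minus KELLY (SE 0.29, adjusted p = 4.55e-07) and 2.11 for LAN-1 minus KELLY (adjusted p = 1.21e-05), with 2.05 and 1.67 after scaling. Its paralogue BUB1B (BubR1) averaged 69.6 ± 3.88 TPM in SKNAS control, 51.6 ± 3.70 in LAN-1 control and 36.2 ± 14.7 in KELLY control. Within each library, BUB1 per BUB1B was 0.952 to 1.15 in SKNAS Hmx1, 0.891 to 1.30 in SKNAS control, 0.926 to 0.978 in LAN-1 Hmx1 and 0.829 to 1.23 in LAN-1 control, against 0.341 to 0.353 in KELLY Hmx1 and 0.286 to 0.350 in KELLY control. This ratio does not depend on the scaling of a library, and no KELLY library reached any library of the other lines.

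Other genes of G2 and mitosis differed between the lines too. CENPE was higher in SKNAS control (39.3 ± 5.48 TPM) than in LAN-1 (17.0 ± 2.29) and KELLY control (12.3 ± 4.93), by 1.16 and 1.67. UBE2C, CKS1B and CCNB2, cyclin B2, were lower in SKNAS than in LAN-1 and higher in LAN-1 than in KELLY. UBE2C had 206 ± 14.97 TPM in SKNAS control, 361 ± 31.8 in LAN-1 control and 152 ± 33.0 in KELLY control. CKS2 was higher in SKNAS control (408 ± 95.6 TPM) and LAN-1 control (290 ± 30.0) than in KELLY control (121.3 ± 38.5). TOP2A, CCNA2 and MAD2L1 were higher in SKNAS control than in both other lines. TOP2A averaged 231 ± 49.4, 131 ± 9.93 and 104 ± 46.5 TPM in SKNAS, LAN-1 and KELLY control. CDK1 (211 ± 21.5, 182 ± 10.8 and 108.9 ± 42.9 TPM in the same order), MYBL2, FOXM1, CCNB1, PLK1 and TPX2 did not pass under both scalings between SKNAS and LAN-1 or between LAN-1 and KELLY. Between SKNAS and KELLY only CCNB1 of these passed under both, and it was higher in SKNAS. MKI67 averaged 38.1 ± 6.88 TPM in SKNAS control, 52.1 ± 3.05 in LAN-1 control and 22.9 ± 16.6 in KELLY control, where it ran from 3.77 to 32.6 TPM. Its difference between LAN-1 and KELLY passed as deposited (1.60, SE 0.59, adjusted p = 0.0312) and did not pass after scaling (1.17, adjusted p = 0.0867).

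**Figure D5:**
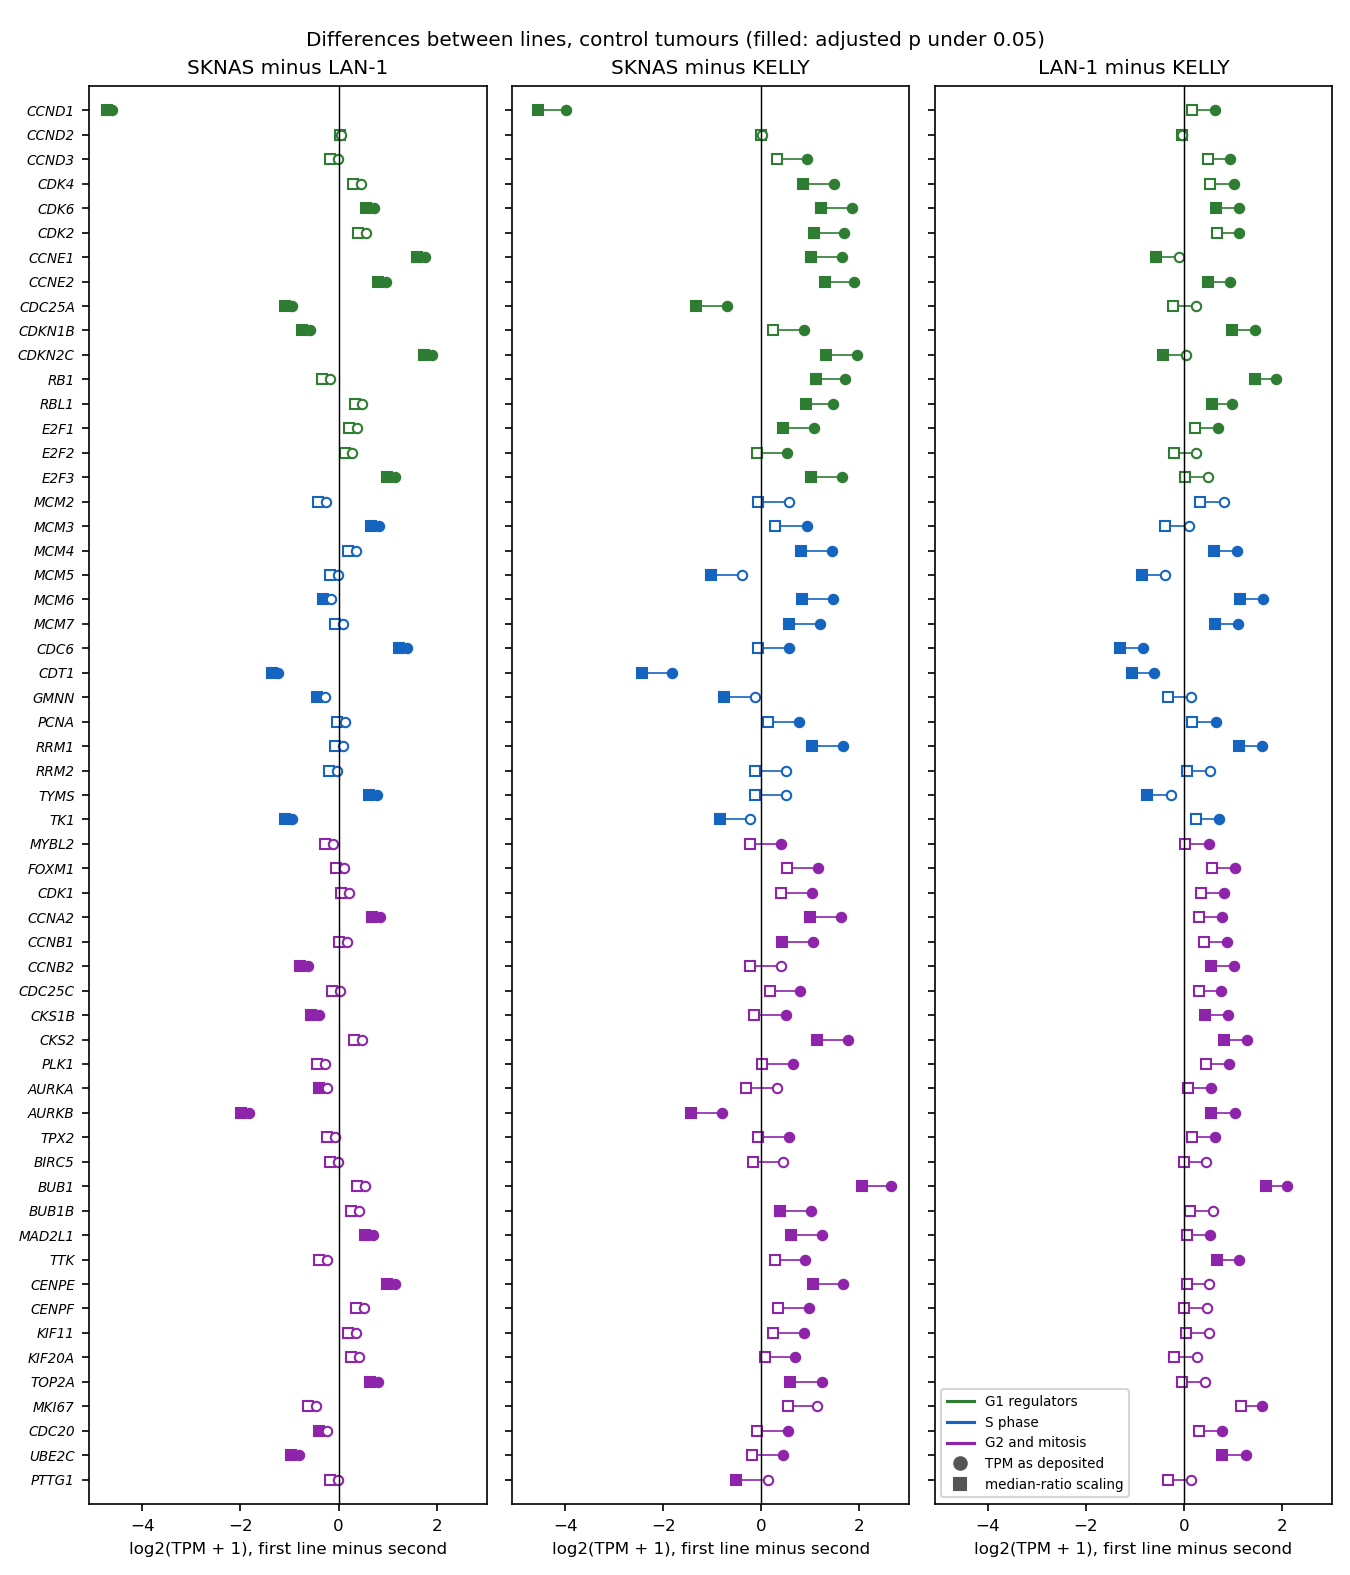
Log2(TPM + 1) differences of the 57 genes between the control arms of 2 lines, as deposited (circles) and with median-ratio scaling (squares), filled for an adjusted p under 0.05. Scaling moves the points of both comparisons with KELLY to the left, and CCND1 (-4.62 and -3.98 as deposited) and BUB1 (2.65 and 2.11) stay far from 0.

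Calls shared by both scalings and by both arms were 6 higher and 9 lower for SKNAS minus LAN-1, 16 higher and 4 lower for SKNAS minus KELLY, and 16 higher and 2 lower for LAN-1 minus KELLY. By the same rule 22.7% of all genes were higher and 15.5% lower for SKNAS minus LAN-1, 26.1% and 12.7% for SKNAS minus KELLY, and 20.3% and 11.6% for LAN-1 minus KELLY. The 9 genes lower in SKNAS than in LAN-1 were CCND1, CDC25A, CDKN1B, CDT1, TK1, CCNB2, CKS1B, AURKB and UBE2C, and the 4 lower in SKNAS than in KELLY were CCND1, CDC25A, CDT1 and AURKB. The 6 higher in SKNAS than in LAN-1 were CDK6, CCNE1, CDKN2C, E2F3, CDC6 and CENPE. The 2 lower in LAN-1 than in KELLY were CDC6 and CDT1. Comparisons that use the same control libraries are not independent of each other.

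The further cell cycle genes were compared between the lines in the same way. Of 84 tested, 27 were higher and 8 lower for SKNAS minus LAN-1, where 31.5% and 20.5% of all genes were, and 27 and 20 after scaling (28.9% and 26.3%). For SKNAS minus KELLY 60 were higher and 5 lower (49.5% and 16.1% of all), and 35 and 18 after scaling (31.2% and 30.7%). For LAN-1 minus KELLY 45 were higher and 6 lower (38.2% and 13.6% of all), and 27 and 16 after scaling (24.8% and 25.3%). CDKN1C, an inhibitor of cyclin-dependent kinases, averaged 2.55 ± 1.001 TPM in SKNAS control, against 28.4 ± 10.6 in LAN-1 control and 24.1 ± 8.47 in KELLY control (differences -3.03 and -2.81, adjusted p = 5.79e-07 and 1.22e-06). The repressor E2F7 had 27.0 ± 1.82 TPM in SKNAS control and 3.74 ± 1.44 in KELLY control (2.61, adjusted p = 2.81e-07), and HMMR, a mitotic spindle protein, 52.9 ± 14.4 and 10.2 ± 5.38 TPM (2.36). ANLN, the cytokinesis scaffold anillin, had 127 ± 5.61 TPM in SKNAS control and 38.7 ± 6.49 in LAN-1 control (1.70), and FBXW7, the ubiquitin ligase subunit that targets cyclin E, 37.5 ± 7.11 and 12.05 ± 1.03 TPM (1.55). Between LAN-1 and KELLY, CDC25B, the phosphatase that activates CDK1, had 207 ± 44.7 TPM in LAN-1 control and 37.2 ± 14.5 in KELLY control (2.50, adjusted p = 2.13e-07). NCAPH, a condensin subunit, had 105 ± 5.29 and 25.3 ± 14.5 TPM (2.19).

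Some levels may include reads of other genes. Of the 57 genes, 31 overlap another annotated gene, 25 of them one on the opposite strand, and for 9 (CCNA2, CCND1, CCNE2, CDC25C, CDK2, CDK6, FOXM1, KIF20A and MCM2) that gene reached 10% or more of their own level. For 16 genes the tables list pseudogene copies, 34 in all, of which CKS1BP3 at a mean of 19.2 TPM was the highest. Among the genes called in SKNAS, CCND1 is the only one of the 9, and its partner LTO1 is given above.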

How the data were processed

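Levels were read for 57 cell cycle genes in 18 libraries, in 6 groups of 3. RNA was prepared as stranded mRNA libraries and read in pairs, per the labels' protocols. The submitters' processing notes name bcl2fastq, FastQC and STAR, and GRCh38.p12 and GRCh37 without a role. The tables' coordinates were read as GRCh37, since their last chromosome 1 gene ends at 249231242, against 248937099 in RefSeq GRCh38. The tool that wrote the tables and any removal of mouse reads are unknown here. The deposited tables hold TPM per gene, computed by the authors and summing to 1000000 per library. FPKM, the authors' deposited level per length and library, served as an alternative. The authors' deposited coverage signal was read only to check the other columns. Depth is unknown.

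Symbols came from a reference table for 52181 of 63677 identifiers. Genes with at least 1 TPM in at least 3 libraries (18650) entered limma 3.58.1 (R 4.3.3, mean-variance trend) on log2(TPM + 1), with 6 group means, 12 residual and 4.95 prior degrees of freedom and 10 comparisons. A gene passed at a Benjamini-Hochberg adjusted p under 0.05 over all genes. Intervals are 95% intervals of that fit. The fit was tested on simulated data. Ratios within a library were computed with pandas 2.3.3 under Python 3.11.15 and plotted with matplotlib 3.10.9.

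Alternatives were median-ratio and quantile scaling, FPKM, a pseudocount of 0.1, no filter, no trend, no mitochondrial transcripts, the compared groups alone, and each library left out. Leaving out the KELLY control libraries of high mitochondrial share and comparing the Hmx1 arms were chosen after seeing the data. The members and lists were chosen with earlier results of these data known. Genes named were a core of regulators, every gene called in a comparison of the arms, the 10 largest called differences between control arms, and 3 per comparison from the wider list. Others were named after their values were seen. Some results that the rule would name are not reported here.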

Additional observations from a re-analysis of the deposited data

Results flagged for a closer look

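The effect of the Hmx1 arm differed between lines by the limma interaction test for CCND1 and CDK1, where 4.99% of all genes passed between SKNAS and LAN-1 and 4.85% between SKNAS and KELLY. The CCND1 effect was larger in SKNAS than in LAN-1 by 2.385 on the log2(TPM + 1) scale (SE 0.32, adjusted p = 1.33e-04) and than in KELLY by 2.708 (SE 0.32, adjusted p = 3.38e-05). All 3 SKNAS Hmx1 libraries lay above all 3 SKNAS control libraries, while the arms overlapped in both other lines. The CCND2 effect stood higher in SKNAS by 1.673 than in LAN-1 and by 1.691 than in KELLY. This gene reached 1 TPM in the 3 SKNAS Hmx1 libraries and in no other, so it was tested only through them, and its difference was fixed by the filter. The CDK1 effect was lower in SKNAS than in KELLY by -1.177 (SE 0.32, adjusted p = 0.0419), with all 3 SKNAS Hmx1 libraries below all 3 SKNAS control libraries and overlapping arms in KELLY.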

How the results depend on the processing

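No paired analysis was possible because the replicate numbers follow the order of the records and the labels tie no library of one group to a library of another.

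The call of CCND1 in SKNAS was kept in all 27 alternatives. CCND2 was tested in 23 of them, and apart from the fit with no filter those were the settings in which the SKNAS Hmx1 libraries took it over the filter, so its calls there say nothing about stability. CDK1 lost its call without SKNAS control replicate 1 and without SKNAS Hmx1 replicate 3, and AURKB in 5 of 27 (adjusted p up to 0.169). RRM2 and CDC20 each lost it in 14 of 27 (up to 0.169 and 0.233), and the CDK1 difference from KELLY in 18 of 27 (up to 0.131). MKI67 between LAN-1 and KELLY lost it in 12 of 29. With 1 library left out, the genes called in SKNAS numbered 1 to 8 against 6 as reported: 1 without SKNAS Hmx1 replicate 3, 2 without SKNAS Hmx1 replicate 1 or SKNAS control replicate 1, 3 without SKNAS Hmx1 replicate 2, and 4 without SKNAS control replicate 2, LAN-1 control replicate 1 or 2, LAN-1 Hmx1 replicate 3, or KELLY Hmx1 replicate 1 or 2. They were 0 to 0 in LAN-1, in KELLY and in the difference between these effects. They were 1 to 4 for the mean over lines, 1 to 6 for the SKNAS minus LAN-1 effect and 1 to 5 for SKNAS minus KELLY, with 1 whenever a SKNAS Hmx1 library was left out, which took CCND2 under the filter. The highest values came without KELLY control replicate 1 (4 and 6) and replicate 2 (5). Between control arms they were 16 to 27, 36 to 49 and 29 to 44. The shares of all genes called with 1 library left out are not given here, so a changed count cannot be read as particular to these genes.

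For the mean over lines, FPKM gave 1 call, quantile normalization 4, and leaving out KELLY control replicates 1 and 3 gave 6, against 2. For the SKNAS minus LAN-1 effect, median-ratio scaling, the compared groups alone and that same omission gave 6 each and quantile normalization 5, against 2. The SKNAS minus LAN-1 control count of 21 became 34 between the Hmx1 arms with median-ratio scaling, and the SKNAS minus KELLY count of 45 became 28 without the 2 KELLY controls. The LAN-1 minus KELLY count of 37 became 22 with median-ratio scaling, 24 without mitochondrial transcripts, 19 with the compared groups alone and 20 without the 2 KELLY controls. CDK2 between LAN-1 and KELLY changed sign to -0.20 between the Hmx1 arms with median-ratio scaling (adjusted p = 0.631). Apart from median-ratio scaling between the same arms, the shares of all genes called in the settings of these counts are not given here. A changed count can therefore not be read as particular to these genes. The causes were not tested. A lone KELLY control library was assumed to vary like the other groups, and no fit on the compared groups alone exists for the mean over lines. Depth is unknown, so no limit from counting could be given.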
